A study of Mus musculus with 12 samples.

Results

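Control mouse islets taken 4 weeks (4 wk) after streptozotocin (STZ) were compared with control islets taken 24 h after STZ. The comparison used 4 of the 12 RNA sequencing libraries of the series, all those labelled control and STZ: 2 at 24 h and 2 at 4 wk, lettered A and B at each time. Control mice had the genotype Bmal1fl/fl, meaning that Bmal1 (gene symbol Arntl) carried recombination sites, with the label naming no Cre in these mice. Other libraries of the series served for reference: 2 vehicle libraries from Bmal1fl/fl mice given citrate buffer and labelled 24 h, and 4 libraries at the same times after STZ from knockout mice of genotype Bmal1fl/flRIPCreERT/+. In the knockout mice a Cre fused to an oestrogen receptor, under the rat insulin promoter, deletes Bmal1 in beta cells, and both genotypes share the floxed alleles. The labels call the dose of STZ submaximal and the cells predominantly beta cells. The dose, age and sex of the mice, the hour of collection and any pooling of animals are not stated by the labels. The series has no 4 wk vehicle group, so time since injection, age of the mice and islet preparation cannot be told apart in the comparison. Because nothing says that A and B came from separate animals, each p-value measures only the spread between libraries, and that spread may be technical.

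STZ is a glucose analogue that enters cells through the transporter encoded by Slc2a2, which is abundant in rodent beta cells, and alkylates DNA. Injured islets are known for a fast phase of stress signalling and immune cell entry and for a later phase in which surviving beta cells work under a high glucose load. Isolated islets always carry some exocrine acinar tissue, and RNA of neighbouring organs can be present too.

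In the 4 libraries the marker lists did not change alike. The total count per library was 109594717 to 127207523. Beta-cell markers took 12.9 and 13.7% of counts at 24 h and 11.4 and 16.3% at 4 wk, against 8.56 and 7.47% in the vehicle libraries, and acinar markers took 24.6 and 25% of counts at 24 h and 20.7 and 20.5% at 4 wk, against 37 and 36.1%. The labels call the cells predominantly beta cells, but summed acinar markers lay above summed beta-cell markers in each of the 4 libraries. Liver markers took 0.885 and 0.883% of counts at 24 h and 0.343 and 0.348% at 4 wk, against 0.107 and 0.097% under vehicle. At 4 wk library A and library B also differed from each other more than at 24 h. The log2 gap between them correlated with the GC content of the transcript at -0.73 across 13104 genes, against -0.23 at 24 h. Genes are not independent replicates in such a correlation.

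**Figure D1:**
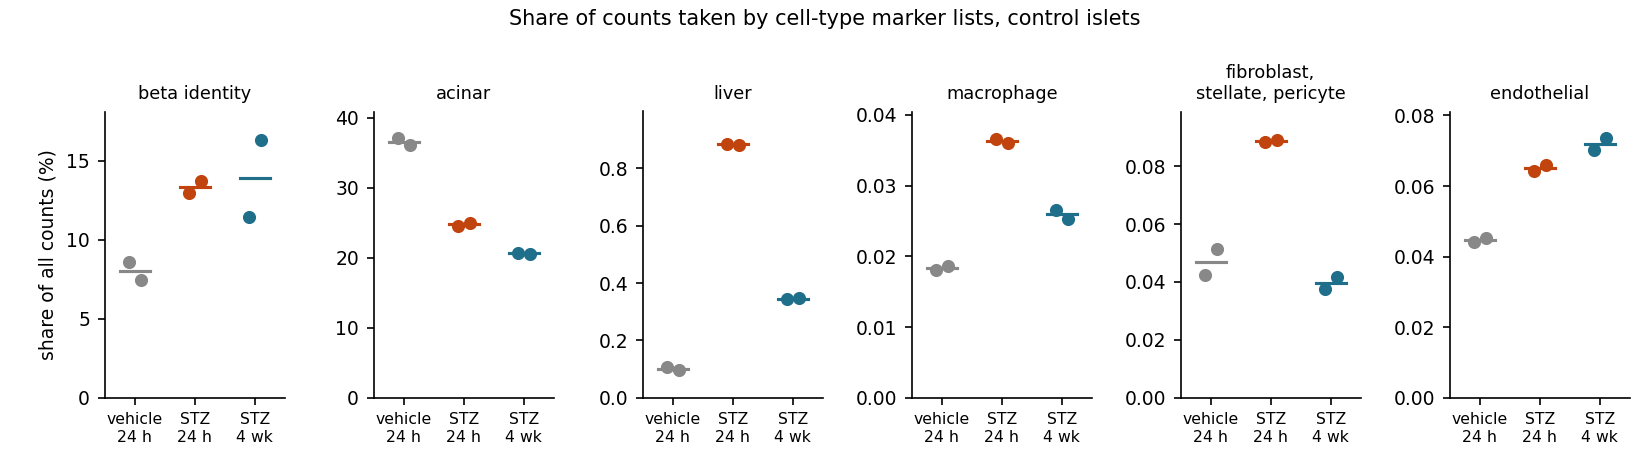
Share of all counts (%) taken by 6 marker lists in control islets, with each point a library (A left, B right) and each line the mean of 2. The liver list is at 0.107 and 0.097% under vehicle, near 0.88% at 24 h and near 0.34% at 4 wk after STZ. The 2 libraries at 4 wk stand apart in the beta-identity list, at 11.4 and 16.3%.

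Between 24 h and 4 wk, 956 of 17411 genes tested passed an adjusted p of 0.05 (5.49%), 221 higher at 4 wk (1.27%) and 735 lower (4.22%). The test was edgeR's quasi-likelihood F test, two-sided, with Benjamini-Hochberg adjustment over all genes tested. A fold change of 2 or more (log2 of at least 1 in size) was reached by 153 of the higher and 576 of the lower genes, and the median log2 fold change over all genes tested was 0.0086. In each of the 956 genes the 2 libraries of one time lay on one side of the 2 of the other. Over all genes tested the same separation was found above in 18.6% and below in 21.6%. Leaving out any 1 of the 4 libraries left 494 to 610 genes past the threshold. Scaling the libraries to pan-endocrine genes shifted the median of all genes to -0.20 and gave 152 higher and 1268 lower genes. An offset for GC content gave 1670 higher and 1352 lower, and the DESeq2 Wald test 594 and 1165. In bulk RNA, fewer cells of a type and less RNA per cell cannot be told apart.

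**Figure D2:**
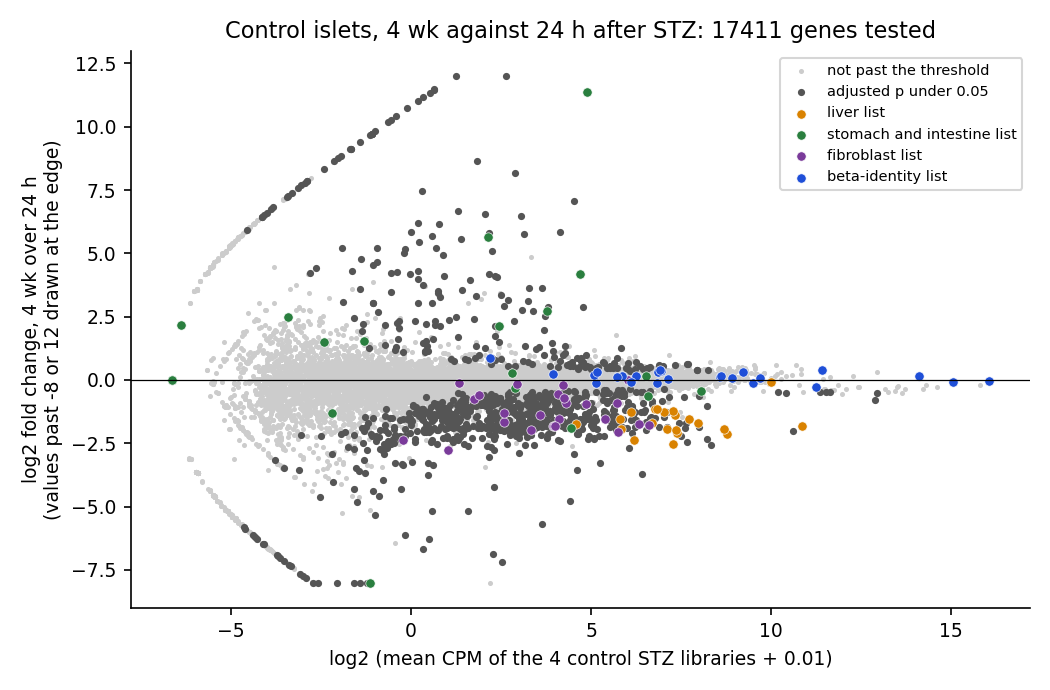
Log2 fold change from 24 h to 4 wk (vertical) against the log2 mean CPM of the 4 libraries (horizontal) for the genes tested, with genes past the threshold in dark grey and 4 lists in colour. The liver list lies below 0, with a median of -1.71, and the beta-identity list lies near 0, with a median of 0.15 (-0.070 under pan-endocrine scaling).

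Beta-cell identity genes had no member past the threshold in the reported fit. None of 25 members was called in either direction by edgeR, against 5.49% of all genes tested. In a list of 25 genes no call is not far from that share. An unadjusted p under 0.05 was found for 2 members, and the DESeq2 Wald test called 1 higher. The median log2 fold change was 0.15, and it was -0.070 under pan-endocrine scaling. Ins1, an insulin gene (mm10 chr19:52264323-52265458), was at 33095 and 36281 CPM at 24 h and 26012 and 39524 CPM at 4 wk. The 4 wk values lay below and above both 24 h values, so the groups overlapped (log2 fold change -0.082, SE 0.32, adjusted p = 1). Ins2, the other insulin gene, was at 65449.6 and 71273 CPM at 24 h and 48704 and 84733 CPM at 4 wk and overlapped in the same way (log2 fold change -0.035, SE 0.40, adjusted p = 1). Mafa, a transcription factor of mature beta cells, was at 2.74 and 3.71 CPM at 24 h and 2.55 and 9.29 CPM at 4 wk, with library B at 4 wk above the other 3 (log2 fold change 0.88, SE 1.06, adjusted p = 0.917). Slc2a2, the transporter that admits STZ, was at 764 and 753 CPM at 24 h and 746 and 637 CPM at 4 wk (log2 fold change -0.13, SE 0.12, adjusted p = 0.825). Both of its 4 wk libraries were below both 24 h libraries, yet within a range that did not pass the test. With the GC offset 9 members were higher and 1 lower. Among them were Rfx6 and Pdx1, transcription factors of the endocrine lineage, at log2 fold changes of 0.40 and 0.43, and Glp1r, the receptor of the incretin GLP-1, at 0.43. G6pc2, a phosphatase that opposes glucokinase, was lower at -0.27. This setting was added after the data were seen, and none of these 4 genes was called in the reported edgeR fit. With the acinar covariate, an acinar marker score added to the model, 14 members were higher and 7 lower, and total-count scaling gave 1 higher.

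The other islet hormones did not change past the threshold either. Gcg, which encodes glucagon in alpha cells, was at 21347 and 21408 CPM at 24 h and 19254 and 18456 CPM at 4 wk, with no overlap (log2 fold change -0.18, SE 0.089, adjusted p = 0.436), and it passed under pan-endocrine scaling at -0.39 (adjusted p = 0.0338). Sst, which encodes somatostatin in delta cells, was at 406 and 437 CPM at 24 h and 386 and 541 CPM at 4 wk and overlapped (log2 fold change 0.14, SE 0.26, adjusted p = 0.982). Of 15 alpha-cell markers 1 fell, against 4.22% of all genes tested. It was Gc, the vitamin D binding protein, which went from 401 and 403 CPM to 212 and 181 CPM (log2 fold change -1.03, SE 0.13, adjusted p = 0.00244). Of 12 delta, PP and epsilon cell markers 2 fell, Rbp4, the retinol carrier of plasma (-0.90), and Prg4, a lubricating proteoglycan (-2.47), a call lost without library B at 24 h or either 4 wk library. Gc and Rbp4 are also abundant liver transcripts, and the liver list fell over the same interval, with a median of -1.71. The part of liver RNA in these changes was not tested.

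Aldh1a3, a retinaldehyde dehydrogenase that marks dedifferentiated beta cells in diabetic mice (mm10 chr7:66390893-66427477), rose from 2.91 and 2.56 CPM to 18.3 and 17.8 CPM (log2 fold change 2.72, SE 0.12, adjusted p = 3.81e-05). The vehicle libraries, at 2.59 and 2.77 CPM, lay beside the 24 h libraries, and both 4 wk libraries lay far above. Its adjusted p stayed between 0.00035 and 0.000821 with each library left out. It was the only member of the list of disallowed and dedifferentiation genes that rose, while 6 of the 23 fell and the list median was -0.29. Of all genes tested 1.27% rose and 4.22% fell. The 6 that fell were Igfbp4, an insulin-like growth factor binding protein (-1.79), Mgst1, a microsomal glutathione transferase (-1.51), Pdgfra, a receptor of mesenchymal cells, Sox9, a factor of duct cells (-1.33), Cxcl12, a chemokine of stromal cells, and Maf, a transcription factor. Mgst1 was at 166 and 160.3 CPM at 24 h and 62.6 and 52 CPM at 4 wk and at 7.53 and 7.69 CPM under vehicle, so both times after STZ were above vehicle. Liver, fibroblast or duct cells also express several of these genes, and members of the 3 lists fell too (20 of 21, 13 of 25 and 2 of 18). Their part in the result was not tested.

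Igf1r, the receptor of insulin-like growth factor 1, was at 51.3 and 50.1 CPM at 24 h and 79.8 and 79.6 CPM at 4 wk, without overlap. It rose (log2 fold change 0.65, SE 0.084, adjusted p = 0.00219), and its vehicle level of 59.1 and 60.5 CPM lay between the times. It was the only 1 of 22 growth receptor and D cyclin genes to rise, against 1.27% of all genes tested. Pdyn, which encodes the opioid precursor prodynorphin, was at 96.3 and 92.8 CPM at 24 h and 142 and 144 CPM at 4 wk and also rose (log2 fold change 0.60, SE 0.09, adjusted p = 0.00486). The vehicle libraries were at 71.9 and 68.5 CPM, below both times after STZ. Without library B at 24 h the Pdyn call was lost, with an adjusted p of 0.0632. Igf1r and Pdyn were chosen after their values were seen.

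Genes of the secretory pathway were higher at 4 wk in a limited number. Creld2, an endoplasmic reticulum (ER) protein induced by unfolded proteins (mm10 chr15:88819646-88826681), was at 56 and 58.8 CPM at 24 h and 88.4 and 99.7 CPM at 4 wk, without overlap, and rose (log2 fold change 0.71, SE 0.12, adjusted p = 0.00756). Pdia4, a protein disulfide isomerase of the ER, was at 167 and 161 CPM at 24 h and 262 and 239 CPM at 4 wk and rose (log2 fold change 0.61, SE 0.11, adjusted p = 0.0107). Vehicle levels were 41 and 40.1 CPM for Creld2 and 140.3 and 146 CPM for Pdia4, below the 24 h levels of the same gene. With Sdf2l1, a chaperone cofactor (0.46), and Psat1, a serine synthesis enzyme (0.43), 4 of the 30 genes of the unfolded protein and integrated stress list rose and none fell, with a median of 0.26. In 18 of the 30 both 4 wk libraries lay above both 24 h libraries, and in 4 both lay below. The shares over all genes tested were 18.6% above and 21.6% below, and 1.27% were called higher. The count of higher members was 0 to 1 with 1 library left out, 1 with 2 lower under pan-endocrine scaling, and 15 with 1 lower under the GC offset. Sec23b, a subunit of the COPII coat that carries proteins out of the ER, was at 126 and 127 CPM at 24 h and 198 and 187 CPM at 4 wk and rose (log2 fold change 0.61, SE 0.089, adjusted p = 0.00437). The COPII subunit Sec24d (0.48, adjusted p = 0.0304), the Golgi tether Golga4 (0.40, adjusted p = 0.0308) and the calcium entry regulator Saraf (0.40, adjusted p = 0.024) rose as well. These 4 genes were chosen after their values were seen. Vehicle was above both 24 h libraries for Psat1, Sec23b and Sec24d, at 32.8 and 30.9, 138 and 140, and 126 and 124 CPM. At 24 h Psat1 was at 26.8 and 27.6 CPM and Sec24d at 105 and 103 CPM. For Sdf2l1, Golga4 and Saraf vehicle was below both 24 h libraries. The Sec23b call was lost without either 24 h library, the Creld2 call without either 24 h library or library B at 4 wk, the Pdia4 call without either 24 h library or library A at 4 wk, and the others without any 1 of the 4. Pan-endocrine scaling ended the calls of Pdia4, Sdf2l1, Psat1, Sec24d, Golga4 and Saraf, with adjusted p of 0.0647 to 0.304.

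Of 25 genes of secretion and exocytosis 1 rose and 1 fell, against 1.27 and 4.22% of all genes tested. Syt11, a synaptotagmin, was at 37.8 and 40.03 CPM at 24 h and 53.5 and 53.9 CPM at 4 wk (log2 fold change 0.46, SE 0.093, adjusted p = 0.0216). Stxbp5l, a tomosyn that binds the exocytosis machinery, was at 58.4 and 55.6 CPM at 24 h and 29.3 and 19.3 CPM at 4 wk and fell (log2 fold change -1.23, SE 0.23, adjusted p = 0.0173). Both genes separated the times without overlap, and Stxbp5l at 4 wk was below its vehicle level of 34.7 and 36.4 CPM as well. The Syt11 call was lost without any 1 of the 4 libraries and under pan-endocrine scaling (adjusted p = 0.185), and the Stxbp5l call without either 24 h library or library B at 4 wk. With the GC offset 10 members of the list were higher and 1 lower.

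**Figure D3:**
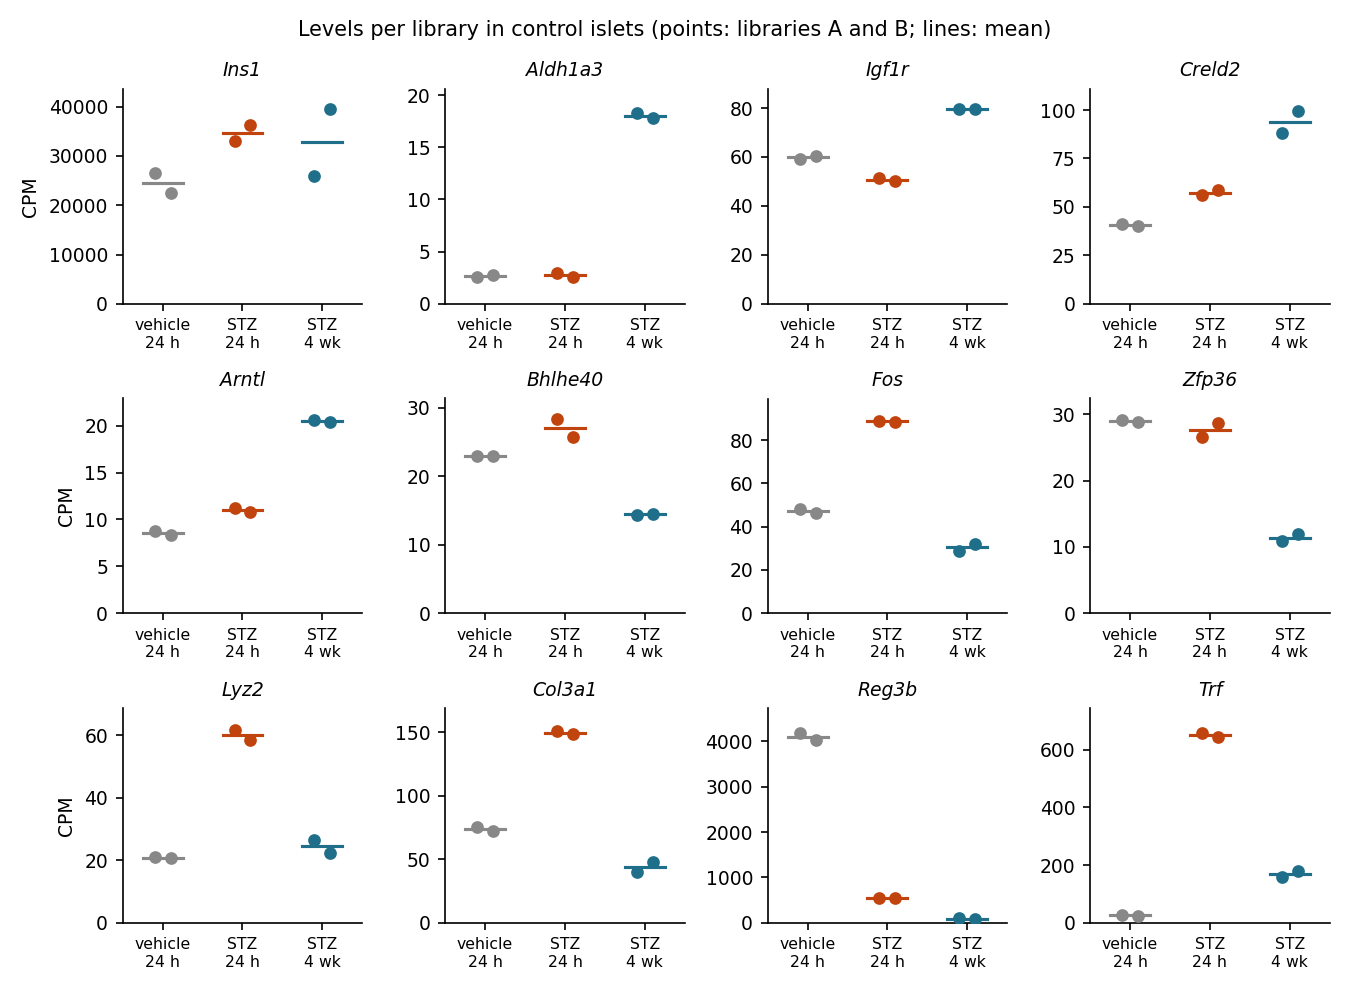
CPM of 12 genes in the vehicle, 24 h and 4 wk libraries of control islets, with points for A and B and a line at their mean. Ins1 overlaps between the times, Aldh1a3, Igf1r, Creld2 and Arntl are higher at 4 wk, and the other 7 are lower.

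Immediate early genes, which are transcribed within minutes of a stimulus and turn over fast, were lower at 4 wk. Of 22 tested 9 fell and 1 rose, against 4.22 and 1.27% of all genes tested, and the median was -1.09. In 15 both 4 wk libraries lay below both 24 h libraries, against 21.6% of all genes tested. Fosb, an AP-1 subunit, was at 8.7 and 8.34 CPM at 24 h and 1.32 and 1.15 CPM at 4 wk and fell (log2 fold change -2.78, SE 0.18, adjusted p = 8.21e-05). Fos, the prototype AP-1 subunit (mm10 chr12:85473901-85477270), was at 88.8 and 88.4 CPM at 24 h and 28.6 and 32.2 CPM at 4 wk and fell (log2 fold change -1.54, SE 0.11, adjusted p = 0.000122). The Fos vehicle level of 48.2 and 46.3 CPM lay between the times, so both 4 wk libraries were below vehicle too. Jun, the partner of Fos, was at 34.4 and 32.8 CPM at 24 h and 12.6 and 12.7 CPM at 4 wk and fell (log2 fold change -1.41, SE 0.13, adjusted p = 0.000393). Zfp36, which destabilises messages of cytokines, was at 26.6 and 28.6 CPM at 24 h and 10.9 and 11.9 CPM at 4 wk and fell (log2 fold change -1.28, SE 0.10, adjusted p = 0.000174). For Zfp36 the vehicle level of 29.1 and 28.8 CPM was close to the 24 h level, unlike for Fos. Egr1, Dusp1, Atf3, Klf4 and Nr4a1 fell as well, and Ier5 rose. With 1 library left out 6 to 7 members fell. Fos, Fosb, Jun and Zfp36 were called in each of these fits.

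The promoter of Fos is shown because its cyclic AMP response element is the known entry point of calcium and cyclic AMP signals in this group. The window runs from 250 bases before to 50 bases after the annotated start, from RefSeq in GRCm38.p6, the assembly called mm10 (chr12:85473640-85473939, plus strand), and capitals mark TGACGT on either strand, the core of the element that was searched.
Fos: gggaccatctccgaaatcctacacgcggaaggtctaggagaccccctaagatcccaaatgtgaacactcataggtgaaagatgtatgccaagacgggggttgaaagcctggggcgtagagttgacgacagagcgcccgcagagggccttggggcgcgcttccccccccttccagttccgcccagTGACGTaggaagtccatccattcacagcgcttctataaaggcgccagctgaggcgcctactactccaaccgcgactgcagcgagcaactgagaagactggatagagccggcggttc
The match lay 66 bases upstream of the start. TGACGT was found in the windows of 6 of 18 immediate early genes with a window (Atf3, Dusp1, Egr2, Fos, Maff and Nr4a3), against 8.37% of 27025 genes. Of the members that fell Atf3, Dusp1 and Fos held it, and Fosb, Jun, Klf4, Nr4a1 and Zfp36 had none in their windows. A match is a description of letters and not of a bound site.

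Heat shock genes split. Of 14 tested 4 fell, against 4.22% of all genes tested, and none rose. The median was -0.062, and it was 0.0099 under total-count scaling. Hspa1b, an inducible HSP70, was at 3.53 and 3.91 CPM at 24 h and 0.567 and 0.903 CPM at 4 wk and fell (log2 fold change -2.33, SE 0.26, adjusted p = 0.00111), and its near-identical copy Hspa1a was at 4.06 and 4.16 CPM at 24 h and 0.641 and 0.925 CPM at 4 wk (log2 fold change -2.39, SE 0.52, adjusted p = 0.0326). Reads of these copies could be split between them in counting, so their separate values are uncertain. Dnajb1, the HSP40 partner, was at 29.5 and 30.9 CPM at 24 h and 18.3 and 19 CPM at 4 wk and fell (log2 fold change -0.70, SE 0.088, adjusted p = 0.00195). Hspb8, a small heat shock protein, was at 19 and 19 CPM at 24 h and 13.3 and 13.2 CPM at 4 wk (log2 fold change -0.52, SE 0.11, adjusted p = 0.0237). At 4 wk Dnajb1 and Hspb8 were also below their vehicle levels of 24.2 and 23.9 CPM and 19.1 and 18.7 CPM. The calls of Hspa1a and Hspb8 were lost without any 1 of the 4 libraries. With the GC offset 4 members were higher and 5 lower.

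The circadian clock is a feedback loop in which BMAL1 and CLOCK or NPAS2 bind E-boxes, with the core letters CACGTG, and drive Per, Cry and Nr1d genes, whose proteins act back on the loop. Its levels depend on the hour of collection, which the labels do not state, so hour and time since STZ cannot be told apart. Arntl, which encodes BMAL1 (mm10 chr7:113207465-113314126), was at 11.2 and 10.8 CPM at 24 h and 20.6 and 20.4 CPM at 4 wk and rose (log2 fold change 0.90, SE 0.11, adjusted p = 0.00175). Both 4 wk libraries were above both 24 h libraries and above the vehicle level of 8.79 and 8.36 CPM. Npas2, a partner of BMAL1, was at 2.03 and 1.98 CPM at 24 h and 2.98 and 4.17 CPM at 4 wk (log2 fold change 0.84, SE 0.20, adjusted p = 0.0494). Cry1, a repressor of the loop, was at 7.7 and 8.21 CPM at 24 h and 13.4 and 11.4 CPM at 4 wk (log2 fold change 0.64, SE 0.14, adjusted p = 0.0329). These were the 3 of 16 core clock genes that rose, against 1.27% of all genes tested. None fell, and the median was 0.063, or -0.15 under pan-endocrine scaling. The Arntl call held with each library left out, the Cry1 call was lost without any 1 of the 4, and the Npas2 call without either 24 h library or library B at 4 wk. Pan-endocrine scaling ended the Cry1 and Npas2 calls (adjusted p = 0.12 and 0.104), which left 1 of 16.

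Per2, a repressor, was at 23.3 and 26 CPM at 24 h and 23.6 and 27 CPM at 4 wk and overlapped (log2 fold change 0.038, SE 0.12, adjusted p = 1). Nr1d1, which encodes the nuclear receptor REV-ERBα, was at 31.5 and 36.5 CPM at 24 h and 21.3 and 38.6 CPM at 4 wk and also overlapped (log2 fold change -0.18, SE 0.38, adjusted p = 0.99). Of 11 clock output genes 4 fell, against 4.22% of all genes tested, none rose, and the median was -0.49. Bhlhe40, an E-box repressor, was at 28.3 and 25.6 CPM at 24 h and 14.3 and 14.5 CPM at 4 wk and fell (log2 fold change -0.90, SE 0.095, adjusted p = 0.000663). Tef, a PAR bZIP activator, was at 88.6 and 88.7 CPM at 24 h and 62 and 64 CPM at 4 wk and fell (log2 fold change -0.49, SE 0.086, adjusted p = 0.0106). Ciart, a repressor that oscillates with the clock, was at 2.53 and 2.08 CPM at 24 h and 0.936 and 1.18 CPM at 4 wk (log2 fold change -1.12, SE 0.26, adjusted p = 0.0417), and Tsc22d3, a glucocorticoid-induced gene, was at 33.2 and 32.8 CPM at 24 h and 23.4 and 24.4 CPM at 4 wk (log2 fold change -0.47, SE 0.088, adjusted p = 0.016). All 4 had both 4 wk libraries below both 24 h and both vehicle libraries. Dbp, a PAR bZIP activator with a large daily swing, was at 20.8 and 22.4 CPM at 24 h and 8.94 and 12.6 CPM at 4 wk without overlap and missed the threshold (log2 fold change -1.002, SE 0.26, adjusted p = 0.0665). The Bhlhe40 call held with each library left out, and the calls of Tef, Ciart and Tsc22d3 were lost without any 1 of the 4. With the GC offset 6 core clock genes were higher and 1 lower, and 7 output genes were lower.

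The promoter windows of the 3 called clock genes that held an E-box are shown so that the positions of the motif can be compared between a gene that rose, Cry1, and genes that fell, Ciart and Tef. Capitals mark CACGTG, which reads the same on both strands.
Cry1: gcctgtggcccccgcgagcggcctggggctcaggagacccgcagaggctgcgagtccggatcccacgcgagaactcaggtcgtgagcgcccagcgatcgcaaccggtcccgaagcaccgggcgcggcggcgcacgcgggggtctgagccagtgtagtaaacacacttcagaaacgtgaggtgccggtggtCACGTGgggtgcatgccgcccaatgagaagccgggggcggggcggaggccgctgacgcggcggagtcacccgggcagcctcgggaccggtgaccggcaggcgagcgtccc
Ciart: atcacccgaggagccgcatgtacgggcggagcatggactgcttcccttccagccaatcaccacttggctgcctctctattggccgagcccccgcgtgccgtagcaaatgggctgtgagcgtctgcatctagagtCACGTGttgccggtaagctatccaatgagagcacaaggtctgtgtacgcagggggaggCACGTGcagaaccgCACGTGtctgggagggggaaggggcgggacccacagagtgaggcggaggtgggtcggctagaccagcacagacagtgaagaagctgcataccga
Tef: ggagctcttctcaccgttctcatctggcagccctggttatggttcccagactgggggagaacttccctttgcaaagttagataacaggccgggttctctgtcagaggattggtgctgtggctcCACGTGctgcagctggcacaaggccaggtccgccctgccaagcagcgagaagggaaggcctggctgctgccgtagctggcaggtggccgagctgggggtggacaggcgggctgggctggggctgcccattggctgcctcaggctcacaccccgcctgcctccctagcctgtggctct
The windows are at chr10:85185005-85185304, minus strand, for Cry1, at chr3:95882179-95882478, minus strand, for Ciart, and at chr15:81802423-81802722, plus strand, for Tef, all in GRCm38.p6. The Cry1 window held 1 match 60 bases upstream of the start, the Ciart window held 3 at 116, 58 and 44 bases upstream, and the Tef window shown held 1 at 127 bases. A second annotated Tef start had a window of its own, which held 1 at 138 bases. CACGTG was found for 2 of 12 core clock genes with a window and 3 of 9 output genes, against 8.09% of 27025 genes. Arntl and Npas2 had none in these windows, which says only that the letters are not there.

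Genes of DNA replication and mitosis were mostly lower at 4 wk. Of 36 tested 6 fell, against 4.22% of all genes tested, and none rose. A negative log2 fold change was found in 35, with a list median of -0.68. In 31 both 4 wk libraries lay below both 24 h libraries, against 21.6% of all genes tested. Cenpe, a motor of the kinetochore, was at 2.9 and 3.13 CPM at 24 h and 0.969 and 0.91 CPM at 4 wk and fell (log2 fold change -1.68, SE 0.23, adjusted p = 0.00274). Cdk1, the kinase that starts mitosis, was at 4.78 and 4.39 CPM at 24 h and 2.26 and 2.33 CPM at 4 wk and fell (log2 fold change -0.998, SE 0.20, adjusted p = 0.0194). Its vehicle level was 2.01 and 2.83 CPM, so the 24 h libraries were above vehicle and the 4 wk libraries within its range. Cenpf, a kinetochore protein, was at 5.98 and 4.71 CPM at 24 h and 3.05 and 2.32 CPM at 4 wk (log2 fold change -0.99, SE 0.20, adjusted p = 0.022) and Bub1b, a spindle checkpoint kinase, was at 2.12 and 3.27 CPM at 24 h and 1.39 and 1.13 CPM at 4 wk (log2 fold change -1.10, SE 0.22, adjusted p = 0.0231). Ube2c and Ccnb1 completed the 6. Mki67, the proliferation marker, was at 17 and 16.4 CPM at 24 h and 11.5 and 8.36 CPM at 4 wk, without overlap, and missed the threshold (log2 fold change -0.75, SE 0.23, adjusted p = 0.124). The levels were low, and with 1 library left out only 1 to 3 members fell, Cenpe in each fit, whereas the GC offset gave 16. Which cells carry these transcripts cannot be read from bulk RNA.

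Many genes of the G2 and M phases carry the cell cycle homology region, TTTGAA, near the start site, and 2 promoters are shown with it in capitals, on either strand.
Cdk1: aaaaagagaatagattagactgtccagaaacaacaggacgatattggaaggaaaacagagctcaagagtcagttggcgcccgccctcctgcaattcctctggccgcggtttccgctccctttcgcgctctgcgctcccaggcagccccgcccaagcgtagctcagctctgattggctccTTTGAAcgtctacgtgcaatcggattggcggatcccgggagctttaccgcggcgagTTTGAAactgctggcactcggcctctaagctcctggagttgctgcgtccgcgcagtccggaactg
Cenpf: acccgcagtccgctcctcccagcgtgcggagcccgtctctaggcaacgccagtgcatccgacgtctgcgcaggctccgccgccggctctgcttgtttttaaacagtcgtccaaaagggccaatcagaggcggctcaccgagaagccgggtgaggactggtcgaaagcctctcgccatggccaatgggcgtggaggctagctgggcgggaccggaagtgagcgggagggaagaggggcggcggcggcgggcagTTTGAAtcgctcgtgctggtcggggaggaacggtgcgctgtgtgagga
The windows lie at chr10:69352863-69353162, minus strand, for Cdk1, and at chr1:189688037-189688336, minus strand, for Cenpf, in GRCm38.p6. Cdk1 held 2 matches, at 71 and 15 bases upstream of the start, and Cenpf 1 match just after the start. Of 28 members with a window 13 held the letters, against 20.2% of 27025 genes, and of the 6 that fell 4 held them.

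Macrophage genes were lower at 4 wk than at 24 h. Of 30 tested 10 fell, against 4.22% of all genes tested, none rose, and the median was -0.57. In 22 both 4 wk libraries lay below both 24 h libraries, against 21.6% of all genes tested. Summed, the list took 0.0366 and 0.036% of counts at 24 h and 0.0265 and 0.0253% at 4 wk, against 0.018 and 0.0186% under vehicle. Lyz2, a lysozyme of myeloid cells (mm10 chr10:117277541-117282272), was at 61.5 and 58.4 CPM at 24 h and 26.5 and 22.4 CPM at 4 wk and fell (log2 fold change -1.29, SE 0.11, adjusted p = 0.000222), with vehicle at 21.1 and 20.6 CPM. Mrc1, the mannose receptor CD206, was at 14.9 and 15 CPM at 24 h and 4.57 and 3.55 CPM at 4 wk and fell (log2 fold change -1.88, SE 0.25, adjusted p = 0.00286). Cd163, the haemoglobin scavenger receptor, was at 2.82 and 2.42 CPM at 24 h and 0.55 and 0.772 CPM at 4 wk and fell (log2 fold change -1.98, SE 0.29, adjusted p = 0.00437). Gpnmb, a glycoprotein of lipid-laden macrophages, was at 2.74 and 2.84 CPM at 24 h and 0.649 and 0.32 CPM at 4 wk and fell (log2 fold change -2.53, SE 0.41, adjusted p = 0.0077). All 4 genes were at their highest in the 24 h libraries, and Lyz2, Mrc1, Cd163 and Gpnmb were called with each library left out, when 4 to 5 members fell in all.

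Markers of Kupffer cells, the macrophages of the liver, fell beside them. Clec4f, a lectin specific to Kupffer cells, was at 8.2 and 8.23 CPM at 24 h and 1.73 and 1.55 CPM at 4 wk and fell (log2 fold change -2.33, SE 0.17, adjusted p = 0.000222). Vsig4, a complement receptor, was at 4.74 and 4.62 CPM at 24 h and 0.912 and 0.706 CPM at 4 wk and fell (log2 fold change -2.53, SE 0.39, adjusted p = 0.00574). Cd5l, a secreted protein of tissue macrophages, was at 7.08 and 8.79 CPM at 24 h and 0.83 and 1.1 CPM at 4 wk and fell (log2 fold change -3.04, SE 0.20, adjusted p = 0.000175). Their vehicle levels, 1.31 and 0.91 CPM for Clec4f and 0.511 and 1.07 CPM for Vsig4, were far below the 24 h levels, as was the liver list. The part of liver macrophages in the macrophage result was not tested. Clec4f and Vsig4 were chosen after their values were seen, and the Vsig4 call was lost without library B at 4 wk.

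Of 32 chemokines and cytokines 9 fell and Il18 rose, against 4.22 and 1.27% of all genes tested, with a median of -1.47. Ccl6, a myeloid chemokine, was at 4.74 and 4.03 CPM at 24 h and 1.58 and 1.06 CPM at 4 wk and fell (log2 fold change -1.74, SE 0.27, adjusted p = 0.0057). Ccl9, its close relative, was at 6.3 and 5.73 CPM at 24 h and 2.29 and 1.07 CPM at 4 wk (log2 fold change -1.84, SE 0.36, adjusted p = 0.0205). Ccl3, which attracts monocytes, was at 1.19 and 1.21 CPM at 24 h and 0.288 and 0.146 CPM at 4 wk (log2 fold change -2.47, SE 0.41, adjusted p = 0.00813), and Il33, an alarmin, was at 2.32 and 1.78 CPM at 24 h and 0.706 and 0.313 CPM at 4 wk (log2 fold change -2.01, SE 0.35, adjusted p = 0.0119). At 4 wk Ccl3 and Il33 were below their vehicle levels of 1.01 and 0.945 CPM and 2.36 and 3.41 CPM, whereas Ccl6 was within or near its own, 1.33 and 1.32 CPM. With 1 library left out 2 to 6 members fell and the median was -1.65 to -0.86. The Ccl9 call was lost without either 24 h library or library B at 4 wk, the Ccl3 call without library B at 4 wk and the Il33 call without library A at 24 h.

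NF-κB targets and adhesion molecules showed a smaller set of losses, 5 of 25 against 4.22% of all genes tested. None was higher, and the median was -0.14. Lcn2, the iron-binding lipocalin of epithelial stress, was at 2.71 and 2.38 CPM at 24 h and 0.173 and 0.204 CPM at 4 wk and fell (log2 fold change -3.75, SE 0.30, adjusted p = 0.000187). Saa3, the serum amyloid A of local tissue, was at 1.93 and 3.03 CPM at 24 h and 0.0493 and 0 CPM at 4 wk, with 1 library at 0 (log2 fold change -6.66, SE 0.77, adjusted p = 0.00123). Icam1 was at 3.93 and 4.25 CPM at 24 h and 1.65 and 2.01 CPM at 4 wk (log2 fold change -1.16, SE 0.24, adjusted p = 0.0248) and Vcam1 at 7.79 and 6.98 CPM at 24 h and 4.49 and 3.52 CPM at 4 wk (log2 fold change -0.88, SE 0.19, adjusted p = 0.0334), both adhesion molecules for leukocytes. For Lcn2 the vehicle level of 5.5 and 4.37 CPM was above both times after STZ. Nfkbia, the inhibitor of NF-κB, was the fifth. With 1 library left out 2 members fell and the median was -0.44 to -0.078. The calls of Icam1 and Vcam1 were lost without any 1 of the 4 libraries. Of 40 interferon response genes 2 fell, against 4.22% of all genes tested. They were Bst2, a tether of budding viruses (-0.76, adjusted p = 0.025), and Iigp1, an immunity GTPase (-1.02, adjusted p = 0.0307), and both calls were lost without any 1 of the 4 libraries.

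Fibroblast, stellate cell and pericyte genes were lower at 4 wk, with 13 of 25 called lower and none higher, against 4.22% lower over all genes tested. All 25 had a negative log2 fold change, with a median of -1.37, and their sum took 0.0882 and 0.089% of counts at 24 h and 0.0377 and 0.0419% at 4 wk, against 0.0423 and 0.0515% under vehicle. Col3a1, a fibrillar collagen (mm10 chr1:45311538-45349706), was at 151 and 148 CPM at 24 h and 39.8 and 47.8 CPM at 4 wk and fell (log2 fold change -1.77, SE 0.13, adjusted p = 0.00013), with vehicle at 75.2 and 72.6 CPM. Fn1, fibronectin, was at 83.5 and 89.3 CPM at 24 h and 18.6 and 23.4 CPM at 4 wk and fell (log2 fold change -2.04, SE 0.21, adjusted p = 0.00069). Pdgfra was at 8.14 and 9.04 CPM at 24 h and 3.68 and 3.25 CPM at 4 wk and fell (log2 fold change -1.31, SE 0.13, adjusted p = 0.000519). Vim, the intermediate filament of mesenchymal cells, was at 38.8 and 38 CPM at 24 h and 19.7 and 20.02 CPM at 4 wk and fell (log2 fold change -0.95, SE 0.10, adjusted p = 0.000573). In these 4 genes both 24 h libraries were above vehicle. At 4 wk Col3a1 and Vim were below vehicle, Fn1 was above it, and Pdgfra was close to it. Lox, a collagen cross-linker, was at 3.24 and 3.82 CPM at 24 h and 0.641 and 0.393 CPM at 4 wk and fell (log2 fold change -2.77, SE 0.31, adjusted p = 0.00109). Dcn, Timp1, Acta2, Tagln, Lum, Col1a2, Col6a1 and Col5a1 made up the rest, and 11 to 12 members fell with 1 library left out. Fn1 is also a major liver transcript, and the part of liver RNA in its change was not tested.

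Of 17 endothelial genes 2 fell, against 4.22% of all genes tested, and none rose. The median was -0.11, and it was -0.24 to 0.017 with 1 library left out. The DESeq2 Wald test called 2 higher and the GC offset 3, each beside 2 lower. Vwf, the clotting factor carrier stored in endothelium, was at 12 and 13.1 CPM at 24 h and 3.24 and 4.8 CPM at 4 wk and fell (log2 fold change -1.64, SE 0.29, adjusted p = 0.0124). Cldn5, a tight junction protein, was at 1.13 and 0.954 CPM at 24 h and 0.0493 and 0.218 CPM at 4 wk and fell (log2 fold change -2.93, SE 0.69, adjusted p = 0.045). For Vwf the vehicle level of 15.2 and 13.3 CPM was above the 24 h level, whereas for Cldn5 that of 0.185 and 0.285 CPM was below it. Both calls were lost without either 24 h library or library A at 4 wk. Mmrn1, a multimerin of platelets and endothelium, including lymphatic vessels, was at 9.68 and 8.98 CPM at 24 h and 0.559 and 0.437 CPM at 4 wk and fell (log2 fold change -4.23, SE 0.71, adjusted p = 0.0092), a call lost without either 4 wk library. The Mmrn1 vehicle level of 0.0979 and 0 CPM was below both times after STZ.

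The Reg family, secreted lectins made by acinar cells and induced by pancreatic injury, fell further at 4 wk from a 24 h level that was itself below vehicle. Reg2 was at 2562 and 2468 CPM at 24 h and 713 and 539 CPM at 4 wk and fell (log2 fold change -2.01, SE 0.19, adjusted p = 0.000468), with vehicle at 11774 and 12207 CPM. Reg3b was at 548 and 546 CPM at 24 h and 102 and 83.7 CPM at 4 wk and fell (log2 fold change -2.56, SE 0.15, adjusted p = 6.70e-05), with vehicle at 4177 and 4028 CPM. Reg3a was at 161 and 156 CPM at 24 h and 13.7 and 10.5 CPM at 4 wk (log2 fold change -3.71, SE 0.23, adjusted p = 8.21e-05) and Reg3g at 69.6 and 68.5 CPM at 24 h and 7.52 and 6.53 CPM at 4 wk (log2 fold change -3.30, SE 0.14, adjusted p = 3.81e-05). In all 4 the order was vehicle, 24 h, 4 wk from high to low with no overlap. Of 7 members tested these 4 fell, Reg4 rose from 0 in both 24 h libraries, and 4 fell in every fit with 1 library left out. Over all genes tested 4.22% fell and 1.27% rose. The Reg genes are close relatives, so counting could share reads among them.

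Acinar markers fell less. Of 29 tested 6 fell, against 4.22% of all genes tested, and none rose, with a median of -0.37. Prss3, a trypsinogen, was at 139 and 155 CPM at 24 h and 48.8 and 55.2 CPM at 4 wk and fell (log2 fold change -1.498, SE 0.18, adjusted p = 0.0014), and relatives of the trypsinogen family make its value uncertain. Zg16, a zymogen granule protein, was at 3448 and 3387 CPM at 24 h and 2508 and 2406 CPM at 4 wk (log2 fold change -0.48, SE 0.092, adjusted p = 0.0182), and Pnliprp2, a lipase, at 1347 and 1357 CPM at 24 h and 1008 and 925 CPM at 4 wk (log2 fold change -0.48, SE 0.10, adjusted p = 0.0218). The log2 falls of Reg2, Reg3a, Reg3b and Reg3g were larger than that of each of these 3 acinar genes. With 1 library left out 1 acinar marker fell, Prss3. Among 18 duct markers Spp1, osteopontin, fell from 118 and 119 CPM to 53.3 and 45 CPM (log2 fold change -1.27, SE 0.14, adjusted p = 0.000797), as did Sox9, and none rose.

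Summed liver transcripts were lower at 4 wk than at 24 h and above vehicle at both times. None of the 21 markers was at 0 in any of the 4 libraries. Over all genes tested 4.22% were called lower and 1.27% higher. Of 21 liver markers 20 fell and none rose, with a median of -1.71, and 13 fell with any 1 library left out. Serpina1a, an alpha-1 antitrypsin, was at 212 and 225 CPM at 24 h and 57.6 and 58 CPM at 4 wk and fell (log2 fold change -1.92, SE 0.092, adjusted p = 3.81e-05), and Trf, transferrin, was at 658 and 643 CPM at 24 h and 159 and 181 CPM at 4 wk and fell (log2 fold change -1.94, SE 0.13, adjusted p = 0.000106). Their vehicle levels were 6.05 and 6.07 CPM and 27.1 and 24.2 CPM. Within the 15 largest losses stood the acute phase genes Saa2 (-5.69), Saa1 (-4.79), Orm2 (-5.18) and Serpina3n (-2.94) and the liver genes Mbl2 (-3.55), Hal (-2.89), Tdo2 (-2.67) and Agxt (-2.63). The Hal call was lost without any 1 of the 4 libraries. Saa1 was at 40.2 and 41.6 CPM at 24 h and 1.57 and 1.38 CPM at 4 wk and Orm2 at 5.39 and 6.12 CPM at 24 h and 0.148 and 0.167 CPM at 4 wk, with vehicle at 1.46 and 1.92 CPM and 0.0979 and 0.0683 CPM. Both acute phase genes fell by more than the median liver marker. Serpina3n differed from them, since its vehicle level of 35.8 and 34.2 CPM was close to the 40.9 and 40.7 CPM of 24 h. Cat, the peroxide-degrading catalase, which is a gene of the antioxidant list and abundant in liver, was at 148 and 149 CPM at 24 h and 54.1 and 52.9 CPM at 4 wk and fell (log2 fold change -1.47, SE 0.10, adjusted p = 0.000107), and Gstm1, a glutathione transferase, fell too (-0.95). Beside them Gsta4 rose (0.55, adjusted p = 0.027), a call lost without any 1 of the 4 libraries and under pan-endocrine scaling, and the other 19 of 22 antioxidant genes were not called. Over all genes tested 5.49% were called in either direction. The part of liver RNA in the changes of Cat and Gstm1 was not tested.

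Genes known from the intestine were prominent among the 15 largest gains. Sis, sucrase-isomaltase of the intestinal brush border, was at 0.0438 and 0 CPM at 24 h and 67.9 and 49.3 CPM at 4 wk and rose (log2 fold change 11.37, SE 0.72, adjusted p = 8.66e-05). Fabp2, the intestinal fatty acid binding protein, was at 2.89 and 2.49 CPM at 24 h and 59.5 and 38 CPM at 4 wk and rose (log2 fold change 4.18, SE 0.30, adjusted p = 0.00013), and Lct, lactase, was at 0.272 and 0.0721 CPM at 24 h and 7.72 and 9.32 CPM at 4 wk and rose (log2 fold change 5.65, SE 0.46, adjusted p = 0.000413). Adh6a, an alcohol dehydrogenase with close relatives, was listed at 0 in both 24 h libraries and at 13 and 11.8 CPM at 4 wk, at least 985-fold higher against a floor of 3 counts over the group. Cyp2c66 (8.63), S100g (8.16), Akp3 (7.07), Mep1b (6.54), Rbp2 (6.48) and Alpi (5.84), a set with alkaline phosphatases and a brush border protease, were near 0 CPM at 24 h and are also known from the intestine. Of 20 stomach and intestine markers 5 rose and 2 fell, against 1.27 and 4.22% of all genes tested. Their sum changed little, from 0.0588 and 0.0583% of counts to 0.0621 and 0.0624%, against 0.0705 and 0.0647% under vehicle. Clca1, a goblet cell protein, was one of the 2 that fell (34.6 and 33.3 CPM at 24 h and 9.59 and 8.67 CPM at 4 wk, log2 fold change -1.89, SE 0.11, adjusted p = 9.02e-05). The brush border genes and this goblet cell gene moved in opposite directions, but Clca1 does not stand for goblet cell genes as a group. Muc2, a goblet cell mucin of the same list, was not called in the reported fit and was called higher with the GC offset. Tff1 was the other marker that fell. Jchain, which joins polymeric antibodies and marks plasma cells, was at 6.64 and 6.43 CPM at 24 h and 55.5 and 41.4 CPM at 4 wk and rose (log2 fold change 2.89, SE 0.22, adjusted p = 0.000163). It was chosen after its values were seen.

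**Figure D4:**
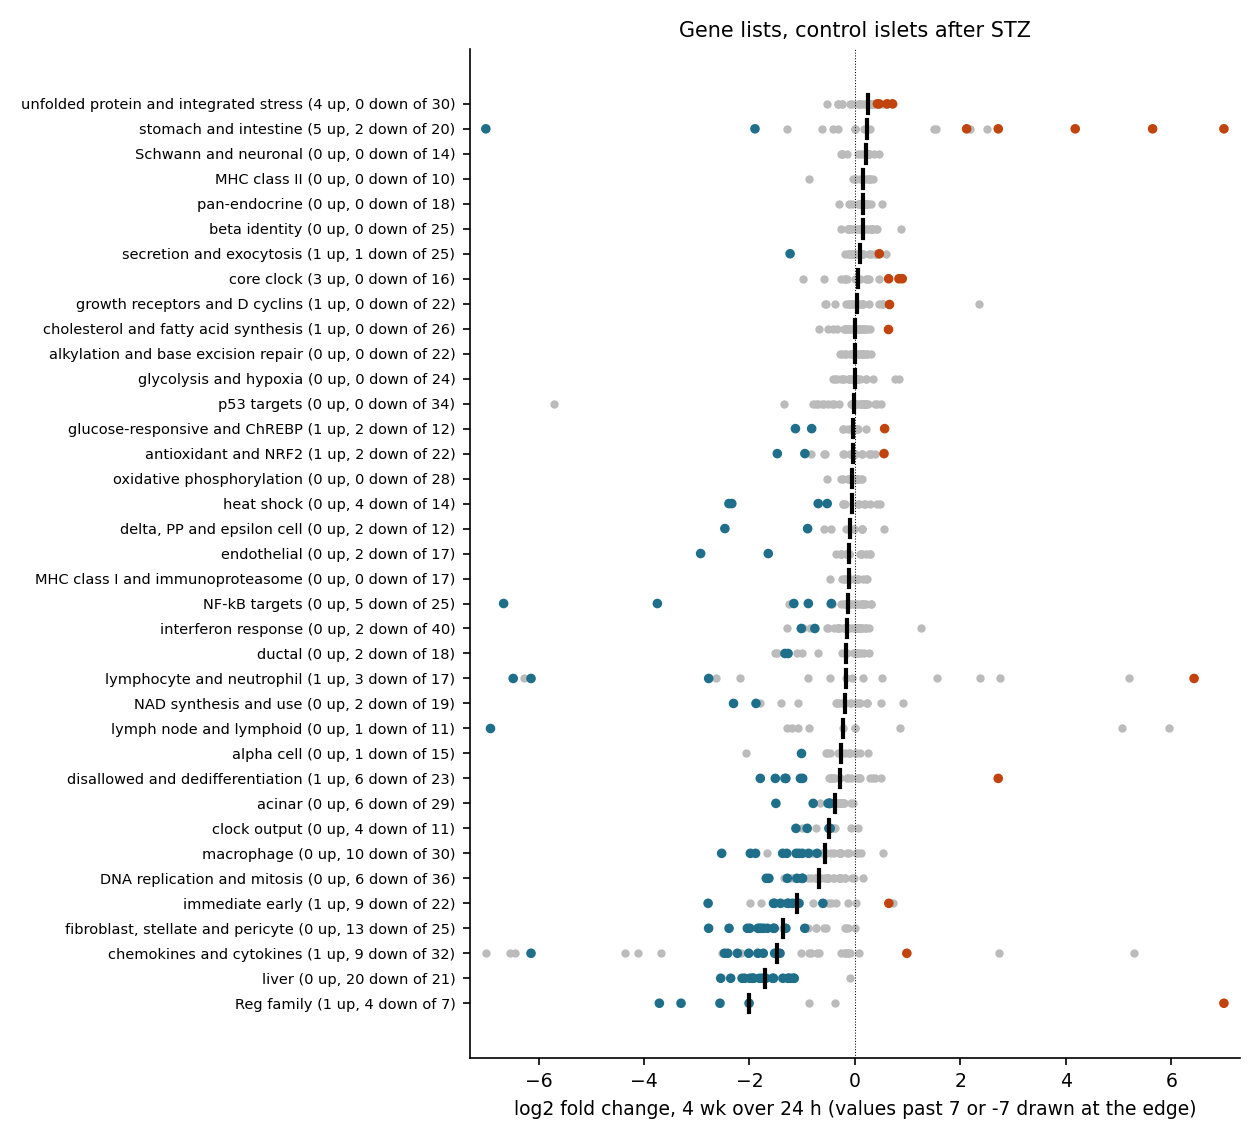
Log2 fold change from 24 h to 4 wk (horizontal) of each tested member of 37 gene lists (rows, ordered by median), with members past the threshold in red (higher) or blue (lower), the others in grey, and the median as a black bar. The Reg, liver, chemokine and fibroblast lists have the lowest medians, and the unfolded protein list the highest, at 0.26.

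Genes of the p53 response and of base repair, which STZ damage engages, had no member called between the times by edgeR. Over all genes tested 5.49% were called, so no call is not far from that share in lists of 22 and 34 genes. Cdkn1a, the cell cycle inhibitor p21, was at 23.7 and 22.9 CPM at 24 h and 25.3 and 27.4 CPM at 4 wk (log2 fold change 0.18, SE 0.10, adjusted p = 0.517), with both 4 wk libraries above both 24 h libraries and all 4 below the vehicle level of 44.2 and 42.7 CPM. Under pan-endocrine scaling its log2 fold change turned to -0.036. None of 22 genes of alkylation and base excision repair was called by edgeR or the DESeq2 Wald test, 1 had an unadjusted p under 0.05, and the GC offset called 1 higher. None of 34 p53 targets was called by edgeR, 4 had an unadjusted p under 0.05, and the DESeq2 Wald test called 1 lower. The GC offset called 6 p53 targets higher and 4 lower, and pan-endocrine scaling called 2 lower. Txnip, a thioredoxin inhibitor induced by glucose, was at 380.1 and 372 CPM at 24 h and 373 and 384 CPM at 4 wk and overlapped (log2 fold change 0.0096, SE 0.094, adjusted p = 1). Scd1, a fatty acid desaturase, was at 161 and 158 CPM at 24 h and 266 and 229 CPM at 4 wk and rose (log2 fold change 0.64, SE 0.14, adjusted p = 0.0326), above its vehicle level of 26.1 and 28.7 CPM at both times. It was the 1 of 26 cholesterol and fatty acid synthesis genes that was called, against 5.49% of all genes tested. The Scd1 call was lost without any 1 of the 4 libraries and under pan-endocrine scaling.

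Islets with Bmal1 deleted in beta cells gave a second comparison of the same times. In them 6211 genes (35.7%) passed the threshold, and the change differed between genotypes, by the interaction term, for 2418 genes (13.9%). That count was 1217 to 1867 with 1 control library left out and 9962 under pan-endocrine scaling. The knockout libraries at 24 h and 4 wk are separate from the control libraries, so the 2 changes share none. Of the 25 beta-identity genes 11 had an interaction past the threshold, each with the lower log2 fold change in control. In the knockout libraries summed acinar markers went from 39.8 and 40.5% of counts at 24 h to 24.7 and 25.01% at 4 wk, and pan-endocrine markers from 0.480 and 0.488% to 1.495 and 1.53%. In control the pan-endocrine share went from 2.12 and 2.11% to 2.56 and 2.59%. The part of these shares in the interactions was not tested. Slc2a2 changed by -0.13 in control and 1.67 in knockout islets (interaction adjusted p = 0.000439), and Gcg by -0.18 and 1.35 in knockout islets (interaction adjusted p = 0.000232). For Ins1 the values were -0.082 and 1.44 in knockout islets (interaction adjusted p = 0.0604), so the difference of the insulin genes did not pass. Of the 30 unfolded protein genes 8 differed, each with the higher value in control. Psat1 was at 0.43 in control and -2.06 in knockout islets (interaction adjusted p = 3.65e-05), and Creld2 at 0.71 and -0.53 in knockout islets (interaction adjusted p = 0.00197).

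Among macrophage genes 13 of 30 differed, against 13.9% of all genes tested. In 11 of them control had the higher value, that is the smaller loss or a gain. Lyz2 fell by 1.29 in control and changed by -2.89 in knockout islets (interaction adjusted p = 0.000439). Clec4f changed by -2.33 and -5.31 in knockout islets (interaction adjusted p = 0.000323). In the fibroblast list 7 of 25 differed, against the same 13.9%, and 5 had the lower value in control. Col3a1 was at -1.77 and -1.10 in knockout islets (interaction adjusted p = 0.0388). Aldh1a3 rose by 2.72 in control and changed by 3.09 in knockout islets (interaction adjusted p = 0.192), a difference that did not pass the threshold. Arntl itself, the deleted gene in knockout beta cells, was at 0.90 and 0.32 in knockout islets (interaction adjusted p = 0.0429), and Bhlhe40 at -0.90 and -0.34 in knockout islets (interaction adjusted p = 0.0239).

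**Figure D5:**
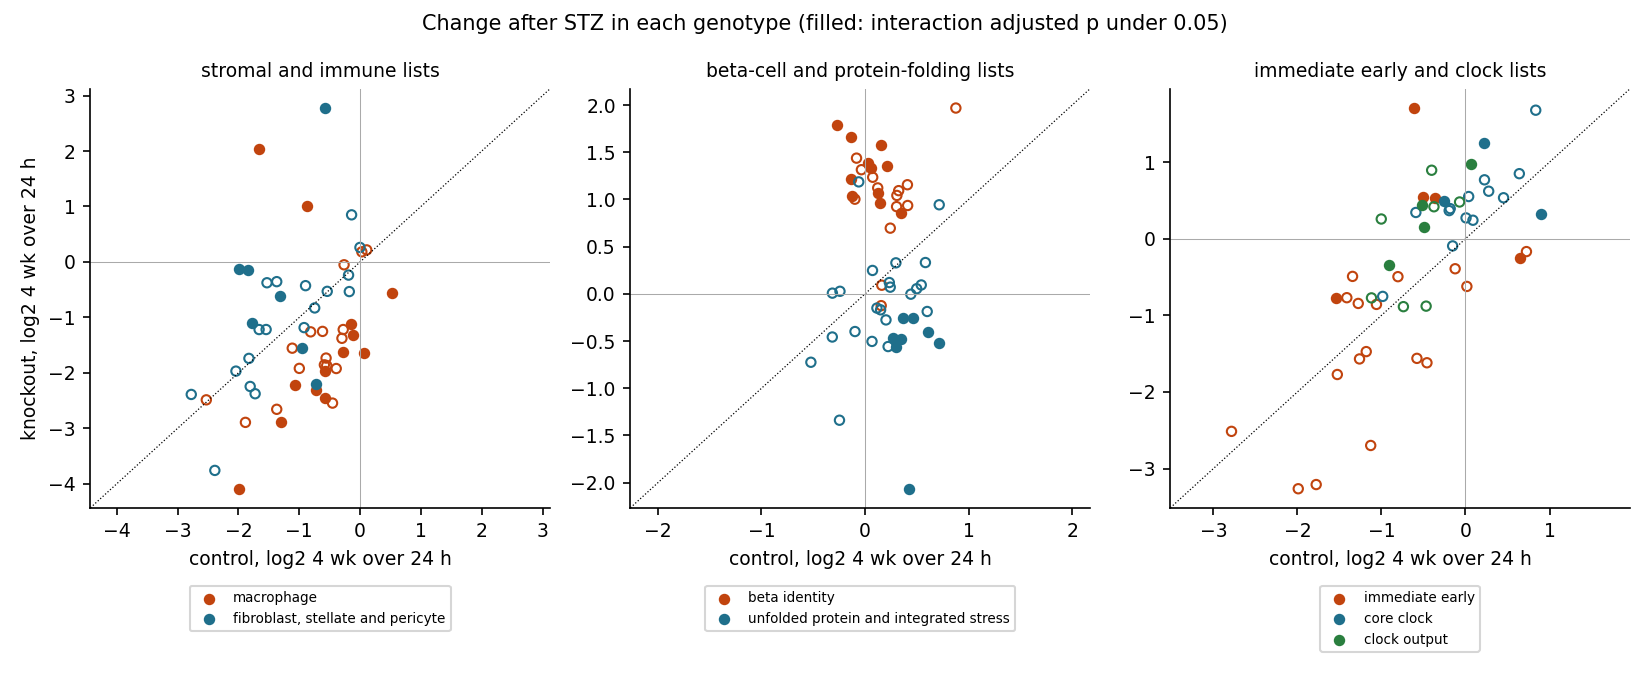
Log2 fold change from 24 h to 4 wk after STZ in knockout islets (vertical) against control islets (horizontal) for members of 7 lists, with filled points where the interaction adjusted p is under 0.05 and the dotted line where both are equal. Beta-identity genes lie near 0 in control, with a median of 0.15 (-0.070 under pan-endocrine scaling), and have a median of 1.12 in knockout.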

How the data were processed

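RNA of pancreatic islets was sequenced as paired reads of 100 bases from stranded mRNA libraries made with 150 ng of total RNA, per the labels' protocols. The authors deposited a gene table of estimated (expected) counts, not scaled for depth, together with 1 transcript file per library. Transcripts were quantified with StringTie 1.3.6, per the file headers, on genome build mm10, per the submitters' processing notes. An aligner is not named in the sources used here. Of 24421 genes 4797 had 0 counts in all 12 libraries. The estimated counts deposited by the authors were rounded to whole numbers and tested with edgeR 4.0.16 under R 4.3.3, using TMM scaling, the filterByExpr filter (17411 genes kept) and a robust quasi-likelihood F test fitted on all 12 libraries with 6 group means (6 residual degrees of freedom, common dispersion 0.0493, prior degrees of freedom 2.57 at the median). Benjamini-Hochberg adjustment ran over all genes tested, with a threshold of 0.05. CPM was computed here with TMM-scaled library sizes, and SE was taken as the log2 fold change divided by the square root of F. The interaction is the change in control minus that in knockout.

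Named genes are the 15 largest gains and 15 largest losses past the threshold with a mean of at least 2 CPM, a gene symbol and no overlap between the times, the 4 called members with the smallest adjusted p in any list described, and 15 fixed genes. Another 13 genes were chosen after their values were seen, as were members named with a count only. The members, the 37 lists and the rule were chosen with earlier results of these data known. Some genes the rule names are not reported here. Alternatives were DESeq2 1.42.0 size factors and Wald test, total-count and pan-endocrine scaling, TMM without acinar, liver and gut lists, no filter, a replicate block, an acinar covariate, only the 4 libraries, each library left out and, added after the data were seen, a GC content offset. The test was checked on simulated data. Figures were drawn with matplotlib 3.10.9. Promoter windows are from RefSeq, GRCm38.p6.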

Additional observations from a re-analysis of the deposited data

Results flagged for a closer look

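The change from 24 h to 4 wk differed between control and knockout islets for 52 of the 116 genes given with values, by the interaction term of the edgeR fit at an adjusted p under 0.05. Over all genes tested the share was 13.9%. Of the 116 genes 104 were called for their change in control, and that change is part of the interaction. The share among them is therefore raised by how they were chosen and cannot be compared with that over all genes. Each value is the log2 fold change in control minus that in knockout, so a positive value means that control islets changed less downwards or more upwards. Beta-cell, hormone, signalling and other genes with the higher change in control were Slc15a2 (3.74) and Cdkn1a (1.17). Beta-cell, hormone, signalling and other genes with the lower change in control were Rgs2 (-2.40), Stxbp5l (-2.28), Slc2a2 (-1.80), Ywhaz (-1.69), Gcg (-1.53), Pdyn (-1.31), Sst (-1.29), Txnip (-0.65) and Golga4 (-0.49). Protein folding, heat shock and metabolic genes with the higher change in control were Psat1 (2.49), Creld2 (1.24), Hspb8 (1.20), Scd1 (1.19), Pdia4 (1.01) and Sdf2l1 (0.72). Among protein folding, heat shock and metabolic genes, Cat (-1.17) had the lower change in control. Among clock, immediate early and mitosis genes, Arntl (0.57) had the higher change in control. Clock, immediate early and mitosis genes with the lower change in control were Cenpf (-1.02), Fos (-0.77), Tef (-0.65) and Bhlhe40 (-0.56). Macrophage, immune and vascular genes with the higher change in control were Clec4f (2.98), Vsig4 (2.504), Cd5l (2.40), Vcam1 (2.23), Cd163 (2.11), Bst2 (1.69), Lyz2 (1.60), Icam1 (1.503) and Jchain (1.499). Macrophage, immune and vascular genes with the lower change in control were Ccl3 (-2.79) and Vwf (-1.76). Stromal genes with the higher change in control were Igfbp4 (0.85) and Vim (0.61). Stromal genes with the lower change in control were Pdgfra (-0.69) and Col3a1 (-0.68). Exocrine genes with the higher change in control were Prss3 (4.08) and Reg2 (1.42). Among exocrine genes, Reg3g (-1.07) had the lower change in control. Liver and intestinal genes with the higher change in control were S100g (10.14), Adh6a (8.53), Akp3 (8.13), Sis (4.76), Alpi (3.99), Cyp2c66 (3.73), Mep1b (2.63), Rbp2 (2.30), Gc (1.05) and Serpina3n (1.02). Among liver and intestinal genes, Clca1 (-2.0004) had the lower change in control. For Adh6a and Sis, which were at or near 0 at 24 h in control, the size of the fitted value depends on the prior count of the fit. No group has the 4 samples that a test for a single outlying library needs. The report gives the values in control for these genes, and the cause of the differences was not tested.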

How the results depend on the processing

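The 956 genes past the threshold (221 higher, 735 lower) and the 2418 with a genotype interaction stayed within 1.5 times of these counts under DESeq2 size factors, total-count scaling, TMM without acinar, liver and gut lists, and no filter. Leaving out 1 library gave 494 to 610 genes, 128 to 154 higher and 366 to 456 lower, and 1217 to 1867 interactions. Of these calls 482 to 565 were among the 956, all with the same sign. In these fits the lone library of a group is assumed to vary like the other groups. The letters A and B pair the samples only by name, and the gaps between A and B at the 2 times correlated at 0.095 across genes. With the letter as a replicate block 840 genes passed, 181 higher and 659 lower, and 2037 interactions. Pan-endocrine scaling gave 1268 lower genes, 9962 interactions and a reversed log2 fold change for Cdkn1a (-0.036), Per2 (-0.18), Sst (-0.080) and Txnip (-0.20). The acinar covariate, which is identified only by the gaps between A and B within groups, gave 8478 genes, 3907 higher and 4571 lower, 9194 interactions, and Ins1, Ins2 and Nr1d1 reversed past the threshold to 0.95, 1.26 and 1.02 (adjusted p = 1.40e-06, 3.10e-06 and 0.000174). A fit of only the 4 libraries gave 134 higher genes and Txnip at -0.0078. The DESeq2 Wald test gave 1759 genes, 594 higher and 1165 lower, and 3695 interactions. The GC offset gave 3022 genes, 1670 higher and 1352 lower, 5869 interactions and Ins2 at 0.065. Total-count scaling put Ins2 at 0.034. With 1 library left out, 7 uncalled genes had both signs. Their log2 fold changes ranged from -0.42 to 0.19 for Ins1, from -0.49 to 0.31 for Ins2, from -0.34 to 1.53 for Mafa, from -0.67 to 0.18 for Nr1d1, from -0.062 to 0.13 for Per2, from -0.13 to 0.36 for Sst and from -0.011 to 0.030 for Txnip. Each gene that reversed was not past the threshold in the reported fit. The cause of these shifts was not tested. With 2 libraries a group the number of libraries limits the precision.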

Other observations

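Several genes outside the described lists separated the times without overlap. Rgs2, which turns off signals of G protein-coupled receptors, was at 352 and 334 CPM at 24 h and 69 and 55.6 CPM at 4 wk and fell (log2 fold change -2.46, SE 0.19, adjusted p = 0.000175). Its vehicle level was 532 and 564 CPM, so it stood lower at each time after STZ than under vehicle. Ywhaz, a 14-3-3 scaffold protein, was at 192 and 188 CPM at 24 h and 71.5 and 65.8 CPM at 4 wk and fell (log2 fold change -1.47, SE 0.15, adjusted p = 0.000555), with vehicle at 189 and 209.7 CPM, close to 24 h. Slc15a2, a peptide transporter, was at 1.78 and 1 CPM at 24 h and 11.7 and 9.19 CPM at 4 wk and rose (log2 fold change 2.91, SE 0.30, adjusted p = 0.000653). It was at 5.87 and 6.38 CPM under vehicle, between the 2 times. These 3 genes were chosen after their values were seen, and each was called with every 1 of the 4 libraries left out.

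Energy metabolism lists showed few calls. Over all genes tested 5.49% were called, which is also few genes in lists this short. Of 28 oxidative phosphorylation genes none was called by edgeR and 0 had an unadjusted p under 0.05, and the DESeq2 Wald test called 0 higher and 0 lower, with 1 higher under the GC offset. Of 24 glycolysis and hypoxia genes none was called by edgeR, and 2 had an unadjusted p under 0.05. The DESeq2 Wald test called 1 higher and 0 lower, and the GC offset called Car9 higher. Among 12 glucose-responsive genes Klf10, a glucose-induced repressor, rose (0.56), and G6pc, the liver glucose-6-phosphatase, fell (-1.13). Of 19 genes of NAD synthesis and use 2 fell, against 4.22% of all genes tested. They were Kmo (-1.88) and Qprt (-2.30), enzymes of the kynurenine route that the liver expresses. The calls of Klf10, Kmo and Qprt were lost without any 1 of the 4 libraries, that of Klf10 also under pan-endocrine scaling, and that of G6pc without library A at 24 h or library B at 4 wk. The liver list fell over the same interval, with 20 of 21 members lower, and its part in the changes of G6pc, Kmo and Qprt was not tested.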
